A study of Mus musculus with 6 samples.

Results

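The genes of adrenergic and muscarinic signalling were examined in the hearts of Mc4r KO and WT mice. They were the 10 rows of the deposited gene table, out of 54532, that carry the symbols Adrb1, Adra1a, Adra1b, Chrm2, Gnas, Adcy5, Adcy6, Grk5, Pde3a and Pde4d. All 10 passed the filter on low values, a mean of at least 0.1 FPKM (fragments per kilobase of gene length scaled to the mapped fragments). Hearts of 3 mice homozygous for a deletion of the melanocortin-4 receptor and of 3 WT littermates were sequenced after selection of polyadenylated RNA, with 1 library per mouse. All mice were 12 weeks of age, on the C57B/6/N background and from matings between heterozygous parents, and the study describes its mice as male. The receptor was deleted in the whole body, so the heart was compared in animals that lacked it in the brain as well. The tissue is given as heart and as muscle in the labels and as left ventricle in the study's discussion.

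Noradrenaline from sympathetic nerves and circulating adrenaline act on β-adrenoceptors of the cardiomyocyte, which activate adenylyl cyclase through the stimulatory G protein and so raise cAMP, heart rate and contractile force. Acetylcholine from the vagus nerve acts on the M2 muscarinic receptor, which inhibits adenylyl cyclase and opens potassium channels. Receptor kinases end the signal at the receptor and phosphodiesterases end it by breaking down cAMP, while α1-adrenoceptors act through phospholipase C instead.

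Between 14691076 and 16047003 reads were counted on genes per library, so that 3 reads per kb of gene equalled 0.176 to 0.213 FPKM. Mc4r itself had 2 reads in WT replicate 3 and 0 in the other 5 libraries, too few to check the genotype. Mitochondrial transcripts took 59.3%, 57.4% and 47.1% of the summed FPKM in WT replicates 1, 2 and 3 and 43.6%, 46.6% and 43.0% in the Mc4r KO libraries, so this share separated the groups. WT replicate 3 stood apart from the other WT libraries. The summed FPKM of 6 atrial marker genes was 825 there, against 29.2 and 100.4 in WT replicates 1 and 2 and 6.60 to 140 in the Mc4r KO libraries. The sum of 6 cardiomyocyte genes lay between 10181 and 11009 in WT and between 12908 and 14471 in Mc4r KO, and that of 5 fibroblast genes between 180 and 187 in WT and between 134 and 152 in Mc4r KO. Taken gene by gene, 4 cardiomyocyte genes were higher and 2 lower in Mc4r KO, and 3 fibroblast genes were lower and 2 higher. The sum of 5 red cell genes ran from 859 to 6344 in WT and from 620 to 1651 in Mc4r KO, and that of 5 leukocyte genes from 17.9 to 24.8 and from 14.5 to 16.7. Of 9 genes of autonomic neurons and Schwann cells, Th and Chat had 0 reads in all 6 libraries, and the list's sum was 6.39 to 8.23 in WT and 4.89 to 8.64 in Mc4r KO. The part of these cell types in the differences below was not tested, and a change in the number of cells of a type cannot be told apart from a change in their RNA.

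None of the 10 genes met the threshold for a difference between the groups, a log2 fold change beyond 0.75 in either direction with an adjusted p under 0.05 (limma), a rule that called 0.46% of the 18035 genes tested. Limma voom on the recovered reads called 1 of the 10, Grk5, and 1.19% of the genes tested. At an unadjusted p under 0.05 there were 6 of the 10, where 20.9% of all genes tested were at that level. Among these, Grk5, Gnas, Adcy5, Adcy6 and Adrb1 were higher in the Mc4r KO hearts and Chrm2 was lower. The Mc4r KO and WT libraries did not overlap in 5 genes, Grk5, Gnas, Adcy5, Adcy6 and Chrm2, against 26.4% of all genes tested. All 10 genes averaged at least 1 FPKM. In a fit on the 11297 genes at that level, 3126 had an unadjusted p under 0.05 (limma) and 33.4% did not overlap. The counts among the 10 were again 6 and 5. The median log2 fold change of the 10 was 0.32, and that of all genes tested was -0.01.

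**Figure D1:**
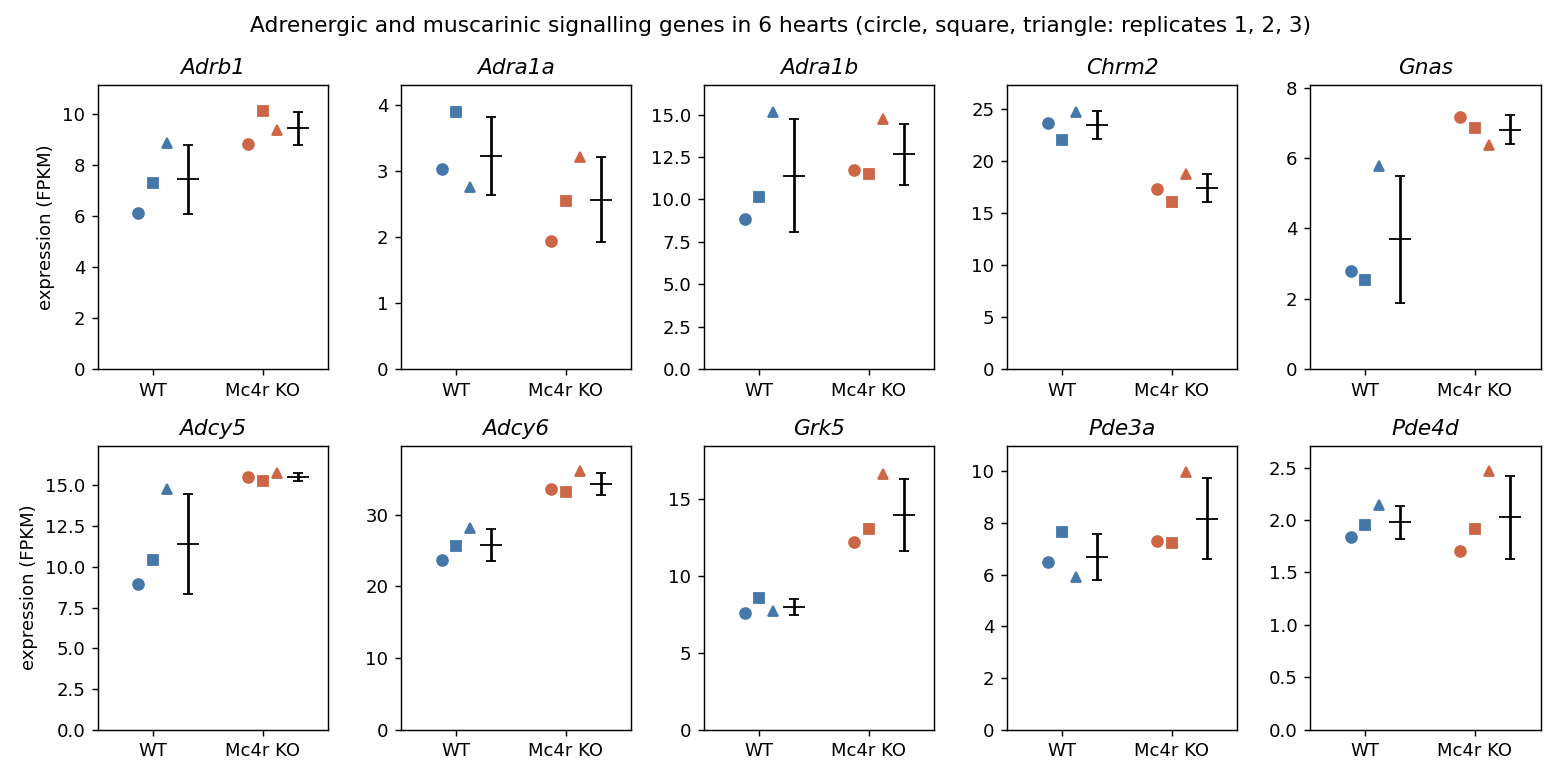
Expression of the 10 genes in each library. The vertical axis is FPKM and starts at 0, symbols are the 3 libraries of each group, and the bar is the mean ± SD. Grk5, Gnas, Adcy5, Adcy6 and Chrm2 show no overlap between the groups, and WT replicate 3 (triangle) lies nearest to the Mc4r KO libraries in Gnas and Adcy5.

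The 250 bases before the RefSeq start were taken for 3 of the genes without overlap, to show how different their base composition is. They lie on the forward strand of GRCm38.p6, at chr16:35154614-35154863 for Adcy5, chr6:36387834-36388083 for Chrm2 and chr19:60889499-60889748 for Grk5, and capitals mark the GC box GGGCGG on either strand.
Adcy5: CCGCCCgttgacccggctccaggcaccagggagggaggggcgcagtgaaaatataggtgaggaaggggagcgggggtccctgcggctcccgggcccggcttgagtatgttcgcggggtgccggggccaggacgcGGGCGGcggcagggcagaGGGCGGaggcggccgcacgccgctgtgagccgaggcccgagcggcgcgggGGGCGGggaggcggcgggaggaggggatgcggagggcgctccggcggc
Chrm2: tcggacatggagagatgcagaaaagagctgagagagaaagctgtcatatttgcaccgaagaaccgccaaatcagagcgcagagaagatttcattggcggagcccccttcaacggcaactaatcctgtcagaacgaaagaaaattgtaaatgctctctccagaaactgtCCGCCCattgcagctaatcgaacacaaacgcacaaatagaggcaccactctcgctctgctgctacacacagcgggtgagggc
Grk5: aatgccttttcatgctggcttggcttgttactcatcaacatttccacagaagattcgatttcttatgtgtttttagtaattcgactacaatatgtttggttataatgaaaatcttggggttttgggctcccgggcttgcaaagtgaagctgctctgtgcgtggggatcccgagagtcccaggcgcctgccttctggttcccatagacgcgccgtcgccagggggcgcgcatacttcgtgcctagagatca
The GC box occurred 4 times before Adcy5, 1 time before Chrm2 and 0 times before Grk5, and it was found in 32.7% of 32851 windows of the same kind. The GC content was 78.0% before Adcy5 and 49.6% before Grk5, with a median of 52.4% over all windows. The cAMP response element TGACGTCA, the site of the transcription factor that protein kinase A activates, was in none of the 11 windows of the 7 genes with an entry and in 1.55% of all windows. The shorter TGACG on either strand, which is part of the full element, was found 1 time before Adrb1, in 3 of the 4 windows of Gnas, 2 of which overlap and share the same site, and in 17.8% of all windows. An exon of 9330158H04Rik, on the opposite strand, reaches into the window of Chrm2. These matches describe the letters of the windows, and binding was not measured.

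Among the receptors, the muscarinic one was the more abundant and was lower in the Mc4r KO hearts. Chrm2 (ENSMUSG00000045613; chromosome 6, 36388084 to 36528414), the M2 receptor, had FPKM of 23.7, 22.1 and 24.8 in WT and 17.4, 16.0 and 18.8 in Mc4r KO. The lowest WT heart stood above the highest Mc4r KO heart. The means were 23.5 ± 1.37 and 17.4 ± 1.36 (SD, n = 3 each). The log2 fold change was -0.43 (standard error 0.09; 95% confidence interval -0.65 to -0.22; limma, adjusted p = 0.0816). Without WT replicate 3 the log2 fold change was -0.40 (limma, adjusted p = 0.0487). That fit put 1846 of 17966 genes tested under an adjusted p of 0.05, against 105 of 18035 with all 6 libraries. Without any 1 of the other libraries, the limma adjusted p of Chrm2 ran from 0.164 to 0.261. Exons of 9330158H04Rik on the opposite strand cover 2.35% of its exon bases.

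Adrb1 (ENSMUSG00000035283; chromosome 19, 56722372 to 56724862) encodes the β1-adrenoceptor, the main β-adrenoceptor of the cardiomyocyte. Its FPKM was 6.12, 7.29 and 8.84 in WT and 8.82, 10.1 and 9.36 in Mc4r KO. The groups met at WT replicate 3 and Mc4r KO replicate 1, so they overlapped by 1 library. The log2 fold change was 0.35 (standard error 0.14, limma, adjusted p = 0.221), and it was 0.49 without WT replicate 3 (adjusted p = 0.0481). Without any 1 of the other libraries, the limma adjusted p of Adrb1 ran from 0.315 to 0.464.

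Adra1a and Adra1b, which encode α1-adrenoceptors, overlapped between the groups. Adra1a (chromosome 14, 66635251 to 66771168) had FPKM of 3.02, 3.88 and 2.75 in WT and 1.93, 2.54 and 3.21 in Mc4r KO, with a log2 fold change of -0.33 (95% confidence interval -0.83 to 0.16; limma, adjusted p = 0.417). Adra1b (chromosome 11, 43774606 to 43901210), the more abundant of the pair per kilobase, had 8.85, 10.1 and 15.2 in WT and 11.7, 11.5 and 14.7 in Mc4r KO. Its highest value was in WT replicate 3, above every Mc4r KO library, and its log2 fold change was 0.18 (95% confidence interval -0.30 to 0.66; limma, adjusted p = 0.652).

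Other receptors of the family were weakly expressed. Adra1d, the third α1-adrenoceptor, was at 1.16, 1.21 and 1.85 in WT and at 2.04, 3.71 and 3.05 in Mc4r KO (log2 fold change 0.998, standard error 0.26, limma, adjusted p = 0.108). The Mc4r KO libraries were above the WT libraries in Adra1d, while the difference of Adra1a had the opposite sign, and neither gene was called. The α2-adrenoceptors Adra2b and Adra2c had 12 to 40 and 4 to 23 reads per library, and Adra2a had 5 reads in WT replicate 3, 1 read in Mc4r KO replicate 1 and 0 in the other libraries. The muscarinic receptor Chrm3 had 8 to 27 reads. Chrm4 had 2, 0 and 2 reads in WT and 0 in each Mc4r KO library, and Adrb3, the β3-adrenoceptor, had 1 read in WT replicate 2 and 0 elsewhere. Chrm1 and Chrm5 had 0 reads in all 6 libraries.

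Gnas (ENSMUSG00000027523; chromosome 2, 174284320 to 174346744) is an imprinted locus whose best known product is the α subunit of the stimulatory G protein. Its FPKM was 2.77, 2.53 and 5.77 in WT and 7.18, 6.86 and 6.36 in Mc4r KO. WT replicate 3 was near the Mc4r KO libraries and the other WT hearts were far below. The means were 3.69 ± 1.81 and 6.80 ± 0.413 (SD, n = 3 each). The log2 fold change was 0.96 (standard error 0.29, limma, adjusted p = 0.134). Without WT replicate 3 it was 1.33 and passed the threshold (limma, adjusted p = 0.00491), as did Grk5, in a fit that called 4.04% of all genes tested.

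The Gnas row does not measure that α subunit alone. It pools 11186 exon bases of several promoters and transcripts, among them those of other proteins of the locus. The exons of Gm20721, annotated on the opposite strand, cover 80.4% to 85.4% of the 3 transcripts that start at 174330006, 174330089 and 174330097, the promoter of the α subunit, and 0% of Gnas-204 and Gnas-210, which lie wholly upstream of it. Gm20721 had 0 to 3 reads per library. The sources used here do not say whether counting used the strand of the reads, and featureCounts without strand by default leaves out reads that lie on exons of both genes. The FPKM of Gnas is therefore not set against the levels of the other genes as a level of the α subunit, and the part of this overlap in the difference was not tested.

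The adenylyl cyclases Adcy5 and Adcy6 are the main isoforms of the cardiomyocyte, and both are inhibited by calcium and by inhibitory G proteins. Adcy6 (ENSMUSG00000022994; chromosome 15, 98589973 to 98610076) had FPKM of 23.7, 25.7 and 28.1 in WT and 33.5, 33.2 and 36.1 in Mc4r KO. The groups were clear of each other, with means of 25.8 ± 2.21 and 34.3 ± 1.56 (SD, n = 3 each) and a log2 fold change of 0.41 (standard error 0.09; 95% confidence interval 0.20 to 0.62; limma, adjusted p = 0.0871). Exons of Gm29331 on the opposite strand cover 8.92% of its exon bases. Adcy5 (ENSMUSG00000022840; chromosome 16, 35154877 to 35305738) had 8.93, 10.4 and 14.8 in WT and 15.5, 15.3 and 15.8 in Mc4r KO. WT replicate 3 fell just short of the Mc4r KO libraries, which lay close together. The log2 fold change of Adcy5 was 0.48 (standard error 0.18, limma, adjusted p = 0.193), and it was 0.68 without WT replicate 3 (adjusted p = 0.0143), still under the threshold on the fold. Without any 1 of the other libraries, the limma adjusted p of Adcy5 ran from 0.335 to 0.414.

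Grk5 (ENSMUSG00000003228; chromosome 19, 60889749 to 61092553), a G protein-coupled receptor kinase that phosphorylates activated β-adrenoceptors and can also act in the nucleus, had the smallest p of the 10. Its FPKM was 7.60, 8.58 and 7.74 in WT and 12.2, 13.1 and 16.6 in Mc4r KO, from 339 to 417 and from 601 to 845 reads. The gap between the groups was wide, and WT replicate 3 sat with the other WT hearts. The means were 7.97 ± 0.532 and 13.99 ± 2.34 (SD, n = 3 each), 1.75-fold higher in Mc4r KO. The log2 fold change was 0.79 (standard error 0.13; 95% confidence interval 0.48 to 1.10; limma, adjusted p = 0.0562), so it passed the threshold on the fold and missed the one on p. Of its words of 50 bases, 1.86% also occur in Gm16284. Over 21 alternative fits the adjusted p of Grk5 ran from 0.0196 to 0.381, and it was called in 5 of them.

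Pde3a and Pde4d, the phosphodiesterases that break down cAMP near the sarcoplasmic reticulum and near β-adrenoceptors, overlapped between the groups. Pde3a (chromosome 6, 141249269 to 141507448) had FPKM of 6.47, 7.66 and 5.91 in WT and 7.30, 7.21 and 9.96 in Mc4r KO, with the highest value in Mc4r KO replicate 3. Its log2 fold change was 0.28 (95% confidence interval -0.10 to 0.65; limma, adjusted p = 0.373), and exons of Gm28523 on the opposite strand cover 5.82% of its exon bases. Pde4d (chromosome 13, 108449948 to 109953461) had 1.84, 1.95 and 2.15 in WT and 1.70, 1.91 and 2.47 in Mc4r KO. The Mc4r KO values of Pde4d lay on both sides of the WT values (log2 fold change 0.02; 95% confidence interval -0.37 to 0.41; limma, adjusted p = 0.965).

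An exact permutation test of 3 libraries against 3 cannot give a two-sided p below 0.1, and each of the 5 genes without overlap reached that value. In order of mean FPKM, the WT hearts had Adcy6, Chrm2, Adcy5, Adra1b, Grk5, Adrb1, Pde3a, Gnas, Adra1a and Pde4d. Neighbours that overlapped between libraries were Adcy6 and Chrm2, Adcy5 and Adra1b, Grk5 and Adrb1, Adrb1 and Pde3a, and Gnas and Adra1a. In the Mc4r KO hearts Adcy6 was clear of Chrm2, at 33.2 or more against 18.8 or less, and Grk5 stood above Adra1b in the order of the means, although libraries of that pair overlapped. The levels per kilobase of Grk5 and Adrb1 rest on deposited gene lengths of 3165 and 2491 bases, where GENCODE M21 has 7055 and 3382 exon bases, so their places in this order depend on the annotation. Pde4d was the lowest of the 10 in all 6 libraries.

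Ratios between a pair of genes within a library do not depend on the scaling of that library. A set of 7 ratios, chosen after the values were seen, was computed from the FPKM. The ratio of Chrm2 to Adrb1 was 3.87, 3.03 and 2.80 in WT and 1.97, 1.59 and 2.004 in Mc4r KO. Every Mc4r KO heart was below every WT heart. The ratio of Grk5 to Grk2, the other main receptor kinase of the heart, was 0.573 ± 0.0435 in WT and 0.881 ± 0.186 in Mc4r KO (SD, n = 3 each), and that of Adcy6 to Chrm2 was 1.10 ± 0.0875 and 1.97 ± 0.0835. The cyclases had an Adcy6 to Adcy5 ratio of 2.34 ± 0.392 and 2.21 ± 0.0687 and overlapping groups. In 4 of the 7 ratios the groups did not overlap. No test is given, since the ratios were formed from genes whose differences were already known.

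**Figure D2:**
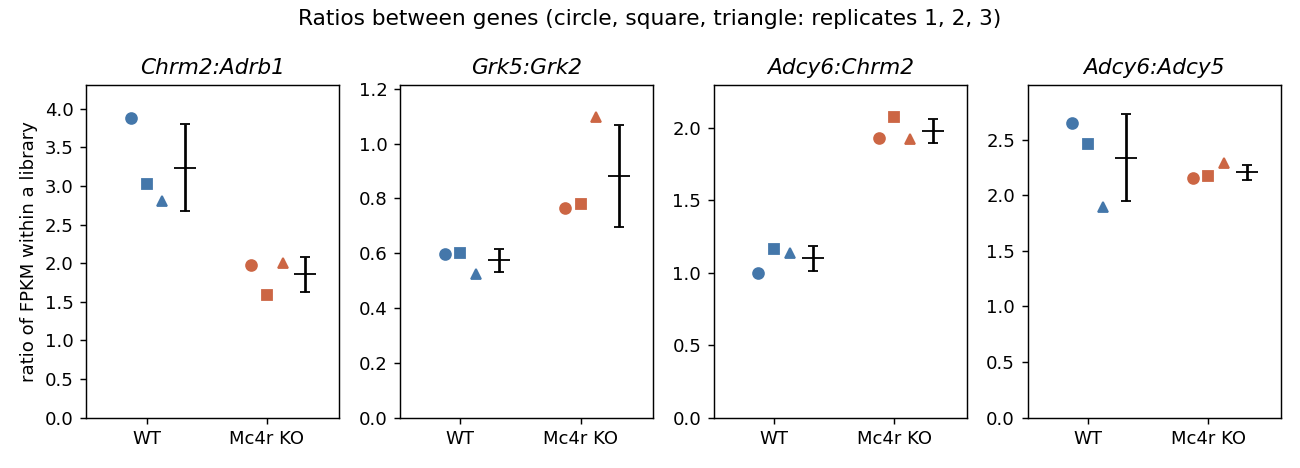
Ratios of FPKM between genes within a library. The vertical axis is the ratio and starts at 0, symbols are the 3 libraries of each group, and the bar is the mean ± SD. The groups do not overlap for Chrm2 to Adrb1, Grk5 to Grk2 and Adcy6 to Chrm2, and they overlap for Adcy6 to Adcy5.

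The differences were set beside the measures that separate the libraries. With the mitochondrial share as a covariate, the log2 fold changes of Adcy6, Gnas, Adrb1 and Adcy5 were 0.22, 0.09, 0.03 and -0.06, while those of Grk5 and Chrm2 were 0.78 and -0.56, with limma adjusted p of 0.311 and 0.255. The share differs between the groups without overlap, so it and the genotype cannot be told apart in these 6 libraries. After scaling to the FPKM of the genes outside the mitochondrial chromosome, the median of all genes was -0.19, and Grk5 was at 0.60 and Chrm2 at -0.63, or 0.79 above and 0.44 below that median. On the same scale Gnas was at 0.77, Adcy5 at 0.28, Adcy6 at 0.21 and Adrb1 at 0.16, and the libraries of Adcy5 then overlapped between the groups. The transcripts of Adcy5, Adcy6 and Gnas hold 58.6%, 57.7% and 56.6% GC, those of Grk5 49.6% and those of Chrm2 44.0%. When the trend with GC content was removed from each library, a fit chosen after seeing the data, the log2 fold changes were 0.25 for Adcy5, 0.21 for Adcy6, 0.78 for Gnas, 0.80 for Grk5 and -0.30 for Chrm2.

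**Figure D3:**
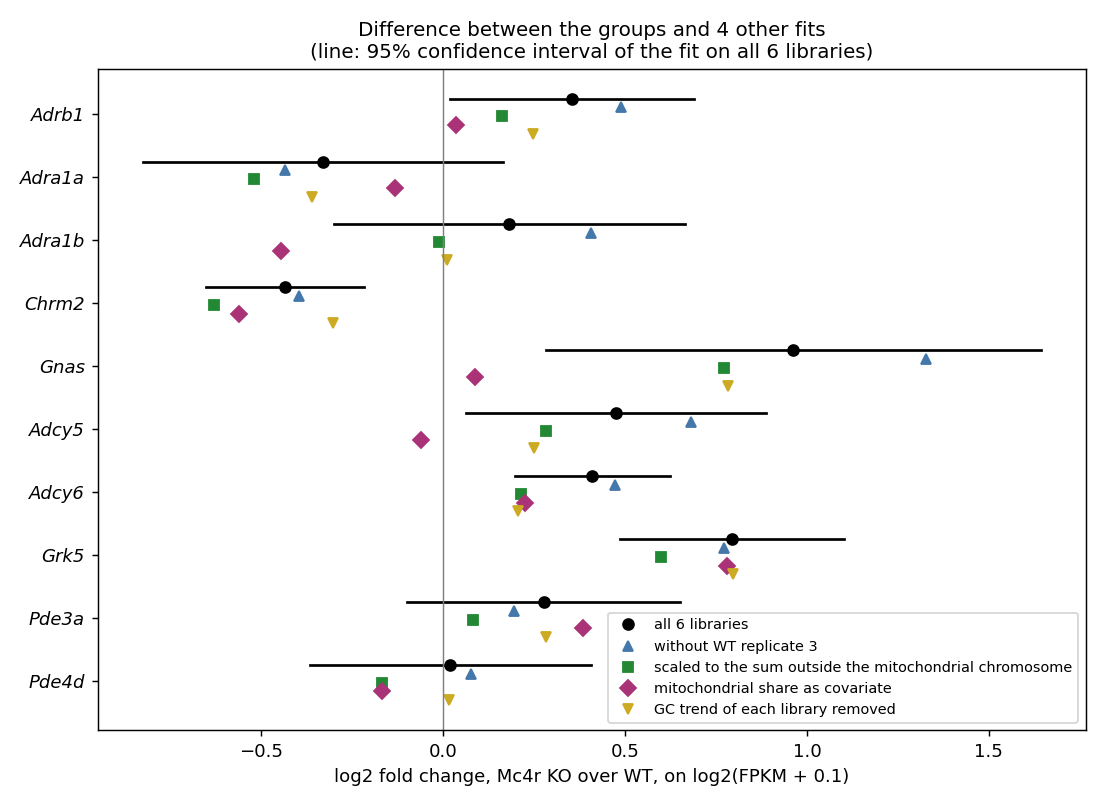
Log2 fold change of the 10 genes, Mc4r KO over WT, on the scale log2(FPKM + 0.1). Black points and lines are the fit on all 6 libraries with its 95% confidence interval, and coloured symbols are 4 other fits. Grk5 stays between 0.60 and 0.80 and Chrm2 between -0.63 and -0.30 in the fits shown, and Gnas runs from 0.09 to 1.33.

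Beyond the 10 genes, 123 genes of the same pathways were tested. Limma called 1 of them, 12 were higher and 22 lower at an unadjusted p under 0.05, and the median log2 fold change was -0.07. The called gene was Rrad, a small GTPase that inhibits L-type calcium channels and is released from them when protein kinase A phosphorylates it. Its FPKM was 28.5, 26.4 and 27.4 in WT and 75.9, 66.5 and 65.8 in Mc4r KO, with no library near the other group. Rrad rose by 1.33 on the log2 scale (standard error 0.09, limma, adjusted p = 0.0028).

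The list of 15 cardiac effectors, which holds Rrad, had a median of 0.05, with 4 genes at an unadjusted p under 0.05, all of them higher. Hcn4, the pacemaker channel that cAMP opens, was at 1.53, 1.58 and 1.63 in WT and at 2.92, 2.71 and 4.86 in Mc4r KO (limma, adjusted p = 0.0796). The lowest log2 fold change of the list was that of Sln, an atrial gene, at -3.11 (standard error 2.63, limma, adjusted p = 0.544). Sln had 0, 158 and 1544 reads in WT and 184, 0 and 0 in Mc4r KO. It was highest in WT replicate 3, and with 0 reads in several libraries its fold change depends on the 0.1 added to the FPKM. Of 11 cAMP-induced transcripts, 6 were at an unadjusted p under 0.05 and all 6 were lower in Mc4r KO, with a median over the list of -0.49. Sik1, a kinase induced by cAMP, was at 11.9, 14.6 and 14.3 in WT and at 7.86, 8.52 and 8.53 in Mc4r KO. Its limma adjusted p was 0.0486 and its log2 fold change of -0.70 was short of the threshold. Nr4a3, a nuclear receptor induced by the same signal, had a log2 fold change of -1.39 (adjusted p = 0.0847). Several genes of that list also respond to other stimuli, to handling and to the time of day.

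Of 15 other phosphodiesterases, 4 were lower and 2 higher at an unadjusted p under 0.05, with a median of -0.27. Pde1c, which calcium and calmodulin activate, was at 3.81, 2.92 and 3.81 in WT and at 1.77, 1.37 and 2.04 in Mc4r KO (log2 fold change -0.99, limma, adjusted p = 0.0639). Pde4b, a close relative of Pde4d, had a log2 fold change of -0.51 without overlap between the groups (adjusted p = 0.0916). Pde4a and Pde4c of the same subfamily, named after their values were seen, were at 0.53 (adjusted p = 0.137) and 0.43 (adjusted p = 0.128), also without overlap and in the other direction. Among 6 other adenylyl cyclases tested, all 6 had positive log2 fold changes with a median of 0.29, and Adcy4 was at 0.40 (adjusted p = 0.191) and Adcy7 at 0.19 (adjusted p = 0.566). Among 14 other G protein subunits, Gnao1, an inhibitory α subunit, was at 0.62 (adjusted p = 0.134) and Gnaq, which couples α1-adrenoceptors to phospholipase C, at -0.34 (adjusted p = 0.135), and the median was -0.11.

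Of 6 other receptor kinases and arrestins, 0 were at an unadjusted p under 0.05. Grk2 was at 12.7, 14.3 and 14.8 in WT and at 16.0, 16.7 and 15.2 in Mc4r KO, a log2 fold change of 0.20 with a limma adjusted p of 0.275, and Grk3 was at 0.27 (adjusted p = 0.492). Of 10 genes tested in the list of RGS proteins, which speed the inactivation of G proteins, 9 had negative log2 fold changes. At that unadjusted p were 2, Rgs7bp at -0.83 (limma, adjusted p = 0.118) and Rgs16 at -1.02 (adjusted p = 0.216). Both were named after their values were seen, and Rgs7bp encodes a protein that binds RGS proteins, not an RGS protein itself. Rgs16 had only 26, 38 and 21 reads in WT and 7, 22 and 11 in Mc4r KO. Its groups overlapped, while those of Rgs7bp did not. Rgs4 and Rgs5, which were not at that level, had log2 fold changes of -0.26 (adjusted p = 0.424) and -0.32 (adjusted p = 0.431). Of 23 genes of protein kinase A, EPAC and their anchoring proteins, 5 were lower and 1 higher at that level. Akap7, an anchoring protein of the sarcoplasmic reticulum, was at -0.42 (adjusted p = 0.0904) and Popdc2, a cAMP-binding membrane protein, at 0.36 (adjusted p = 0.114). Of 8 genes of phospholipase C and protein kinase C, 0 were at that level, with Prkca at -0.28 (adjusted p = 0.245) and Prkcd at 0.21 (adjusted p = 0.523). Of 10 tested genes that make, take up or break down noradrenaline and acetylcholine, Bche, which splits choline esters, was at -0.37 (adjusted p = 0.296).

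**Figure D4:**
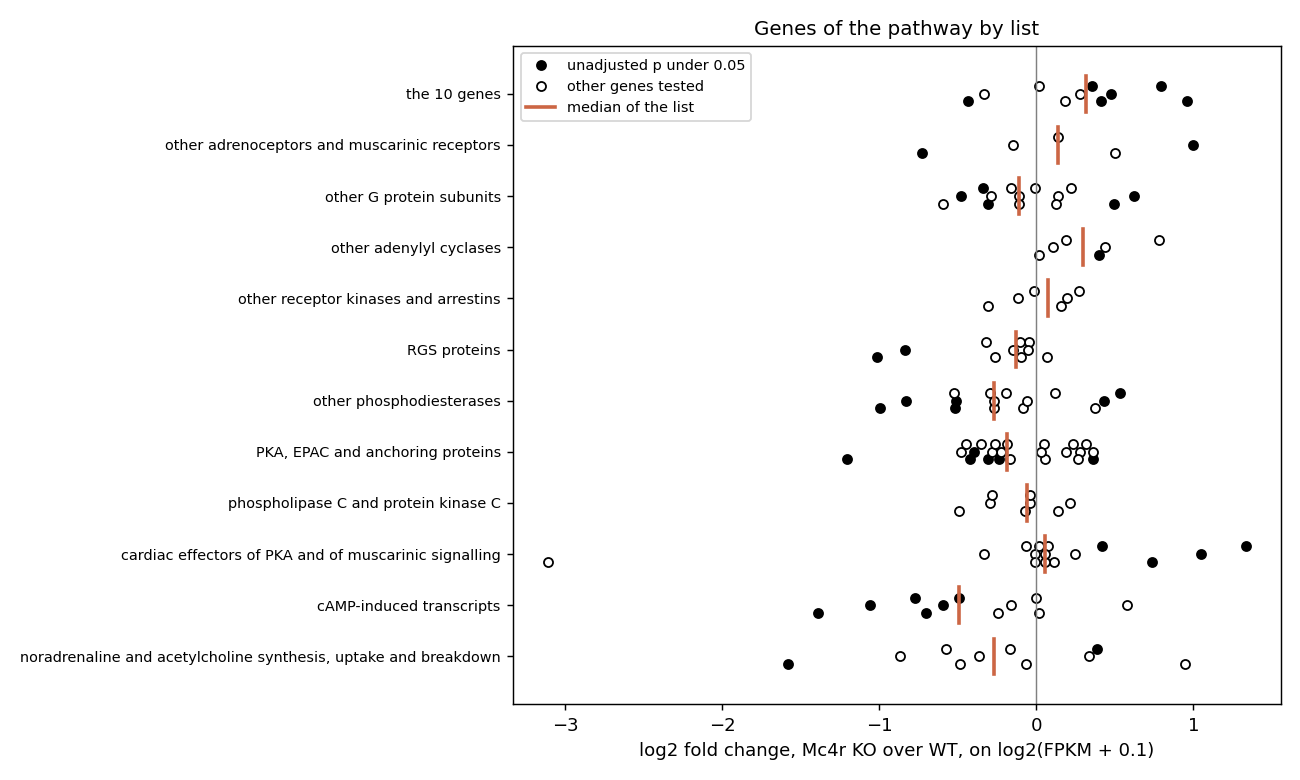
Log2 fold change, Mc4r KO over WT, of each gene tested, by list, on the scale log2(FPKM + 0.1). Filled points have an unadjusted p under 0.05 and the coloured line is the median of a list. The 10 genes have a median of 0.32, and the cAMP-induced transcripts a median of -0.49.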

How the data were processed

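Per the paper's methods, the authors filtered the reads, aligned the pairs with HISAT2 2.0.5, counted reads on genes with featureCounts, tested with DESeq2 and deposited FPKM for each gene and library. The build in the labels is mm10, while annotation and strandedness of the counting are not given in the sources used here. The reads on each gene were recovered from FPKM and gene length, and 100% of the deposited values came out whole (tolerance 0.05 reads).

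Here log2(FPKM + 0.1) was tested with limma 3.58.1 in R 4.3.3, with the empirical Bayes trend and no covariate, over the 18035 genes at 0.1 FPKM or more on average. The p-values are two-sided, with adjustment by Benjamini and Hochberg. Fold changes of low genes are understated by the pseudocount. Called genes have an adjusted p under 0.05 and a log2 fold change beyond 0.75 in either direction. With 1 library per mouse, the p-values set a difference against the spread between these mice. Limma draws the variance of each gene towards a trend over all genes tested. Identifiers were matched to GENCODE M21 of GRCm38 (99.8%), whose exons gave the overlaps and whose transcripts gave the GC content; promoter windows came from RefSeq, for 7 of the 10 genes.

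The genes and lists were chosen with earlier results of these data known. Named are all 10 genes, the other receptors, the called genes of the other lists and the 2 genes per list with the smallest p among those averaging 1 FPKM or more; a few of these are left out of the report. Sln, Rgs7bp, Rgs16, Pde4a, Pde4c and the ratios were chosen after their values were seen. Python 3.11.15 with matplotlib 3.10.9 drew the figures. Alternatives were other pseudocounts, filters, scalings, variance settings, a replicate block, a mitochondrial covariate, limma voom on the recovered reads, protein-coding genes only and fits without each library.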

Additional observations from a re-analysis of the deposited data

How the results depend on the processing

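None of the 10 genes was called in the fit on all 6 libraries. There was 1 called, Grk5, with a mean FPKM of at least 1, with limma voom and over protein-coding genes only, and there were 2, Grk5 and Gnas, with array weights. Leaving out 1 library gave 0 to 2, the 2 without WT replicate 3. Of the 10, those at an unadjusted p under 0.05 numbered 3 instead of 6 with no filter on low values and with the mitochondrial share as a covariate, and 4 to 7 without 1 library. Over all genes, that level held 3761 of 18035 in the main fit, 3555 of 54532 with no filter and 1948 of 18035 with the covariate. Without 1 library it held from 2517 of 18076 (without Mc4r KO replicate 2) to 5060 of 17966 (without WT replicate 3). Those without overlap numbered 5 to 7 without 1 library, where the share of all genes tested was 33.4% to 45.3%. They numbered 4, without Adcy5, after quantile normalization, scaling outside the mitochondrial chromosome, voom and GC trend removal. The shares of all genes tested were then 24.9%, 28.8%, 25.7% and 26.5%, in that order. The 83 calls over all genes became 44 with a pseudocount of 1, 10 with no filter, 147 at a mean FPKM of at least 1, 49 after quantile normalization, 41 with scaling outside the mitochondrial chromosome, 21 without trend, 435 with array weights, 2 with the mitochondrial covariate, 214 with voom, 204 over protein-coding genes, 726 without WT replicate 3 and 7 to 14 without any other library. The 1 call among other pathway genes became 0 with no filter and with the mitochondrial covariate, 2 at a mean FPKM of at least 1, after quantile normalization, with scaling outside the mitochondrial chromosome, with the GC trend removed and on the adjusted p alone, 8 with array weights, 5 with voom, 6 over protein-coding genes, and 1 to 8 without 1 library. The cause of these moves was not tested, except that filters change the number of genes tested.

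The sign turned for Adra1b at -0.013 with scaling outside the mitochondrial chromosome and -0.45 with the mitochondrial covariate, for Adcy5 at -0.061 with that covariate, and for Pde4d at -0.17 under each of these and, without 1 library, from -0.12 (without Mc4r KO replicate 3) to 0.13, with -0.03 without WT replicate 1. Grk5, Chrm2, Gnas, Adcy6, Adrb1, Adra1a and Pde3a kept their sign under all 21 alternatives.

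Replicates of the same number did not deviate together (correlations of -0.14, 0.01 and -0.08), so the numbers were not taken as pairs; with a replicate block, 11 genes were called and 0 of the 10, with 1 other pathway gene. With 3 libraries a group, the 95% intervals of Adra1a, Adra1b, Pde3a and Pde4d include 0, and differences inside them were not detectable.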
